A study of Mus musculus with 3 samples.

Results

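The genes described are 64 messenger RNAs that encode parts of the splicing machinery and the proteins that coat new transcripts. They were taken by symbol, as every gene whose name begins with Hnrnp, Snrp, Sf3a, Sf3b, Prpf or U2af, together with Lsm2 to Lsm8, and they were 64 of the 32285 genes listed in the files. By role they comprised 20 heterogeneous nuclear ribonucleoprotein (hnRNP) genes, 8 Sm core genes, 4 genes of U1- or U2-specific proteins, 7 LSm genes, 9 SF3 genes, 13 PRPF genes and 3 U2AF genes. The 19 Snrp and Lsm genes are called snRNP genes below. The name rule leaves out the Snrnp genes, the SR proteins and the PTB and PCBP proteins, although the latter belong to the hnRNP proteins by biochemistry. Every one of the 64 genes reached a mean of 10 CPM over the 3 libraries (UMIs of a gene as a share of its library, scaled to a common total), a floor that 7608 genes passed in all.

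The series asked what happens to gene expression in mouse embryonic stem cells when protein synthesis is blocked. E14 cells, a line of 129/Ola background that is kept pluripotent in serum with leukemia inhibitory factor (LIF), were exposed to cycloheximide, an inhibitor of translation elongation, for 3 h or for 6 h. The drug was used at 250 µg/mL with 0.007% ethanol as its vehicle, exposure began 24 h after plating, and control cells had the vehicle alone for 6 h. There was 1 library per group, made with 10x Genomics 3′ version 3 chemistry from cells that had been frozen and thawed, and no vehicle control of 3 h was among the libraries.

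Introns are removed by the spliceosome, which assembles on each intron from small nuclear ribonucleoproteins (snRNPs). Each snRNP holds a short RNA inside a ring of Sm proteins, or of LSm proteins in the case of U6, to which particle-specific proteins bind. U2AF and the SF3 complexes recognise the end of the intron and its branch point, the PRPF proteins build and remodel the catalytic particle, and hnRNP proteins coat the nascent transcript and steer splice site choice. Several hnRNP genes limit their own output by splicing in exons or introns that send the transcript to nonsense-mediated decay (NMD), a pathway that depends on translation.

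Cells were barcodes with at least 15000 unique molecular identifiers (UMIs, 1 per captured RNA molecule) of which 1 to 20% came from mitochondrially encoded genes. This gave 2187 control cells, 1739 cells after 3 h and 2554 cells after 6 h, with 111447486, 106842407 and 140321458 UMIs. The median cell had 43160, 51726 and 46200 UMIs and 4.58%, 3.52% and 2.89% mitochondrial UMIs in the same order. Pairs of libraries shared 1 to 3 cell barcodes. The lower mitochondrial limit left out 62 control barcodes against 1 after 3 h and 8 after 6 h, and these held 5.40% of the UMIs of all control barcodes above the UMI minimum. The 8 embryonic stem cell markers all passed the floor and summed to 7067, 7980 and 7170 CPM, although 6 of them were below the control after 6 h and 2, Zfp42 (log2 -0.93) and Utf1 (log2 -0.73), were lower by 1.5-fold or more. The 6 fibroblast markers summed to 2.23 to 3.09 CPM, with Col3a1 and Postn at 0 in every library, and the 6 primitive endoderm markers summed to 8.14 to 12.5 CPM.

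With 1 library per group there is no test between conditions, and every ratio below compares libraries. Members are called higher or lower where the CPM ratio reached 1.5-fold. Intervals are exact 95% Poisson or conditional binomial intervals, which cover counting error only. The chemistry tags each molecule once near its 3′ end, so CPM counts molecules irrespective of transcript length. CPM is a share of the library and does not measure RNA per cell. Where 3 values of a gene follow each other, they are those of the control, 3 h and 6 h.

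Together the 64 genes held a similar share of the transcriptome in the 3 libraries. They summed to 19116 CPM in the control, 18724 CPM after 3 h and 18663 CPM after 6 h. At 3 h, 52 of the 64 were within 0.32 of the control on the log2 scale and 2 were higher by 1.5-fold or more, against 13.9% of all genes of the floor that were higher and 2.13% that were lower (16% in either direction). At 6 h, 43 members were within 0.32, 6 were higher and 2 were lower, against a background of 22.1% higher and 7.79% lower (29.9% in either direction). The 2 higher members after 3 h were Hnrnpdl and Prpf38b, and after 6 h these were joined by Hnrnph3, Snrpn, Prpf38a and Lsm8. The lower members after 6 h were Hnrnpu and Hnrnpul2. Between 3 h and 6 h no member differed by 1.5-fold, where 1.74% of all genes were higher and 2.52% lower (4.26% in either direction).

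These counts depend on how the libraries are scaled. TMM factors shifted every log2 ratio by -0.17 after 3 h and -0.29 after 6 h relative to CPM, and mean UMIs per cell shifted them by 0.27 and 0.11. Under TMM factors 1 member was higher and 2 were lower after 3 h, where 8.60% of all genes were higher and 5.23% lower. After 6 h, 0 members were higher and 9 lower, where 11.6% of all genes were higher and 16.9% lower, so each of the 6 higher calls was lost. Lsm8 also missed the threshold with 10% free RNA subtracted. By mean UMIs per cell 9 members were higher and 0 lower after 3 h, where 30.1% of all genes were higher and 0.776% lower. After 6 h, 10 members were higher and 1 lower, where 27.8% of all genes were higher and 5.49% lower. Since ratios shift together, a log2 CPM ratio between -0.11 and 0.29 after 6 h, or between -0.27 and 0.17 after 3 h, can change side. The position of a member relative to the median of all genes is the same under each of these scalings, and that median was 0.11 after 3 h and 0.17 after 6 h on the log2 CPM scale. The median of the 64 members was 0.025 after 3 h and -0.0031 after 6 h, and 45 and 41 of them lay below the median of all genes.

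**Figure D1:**
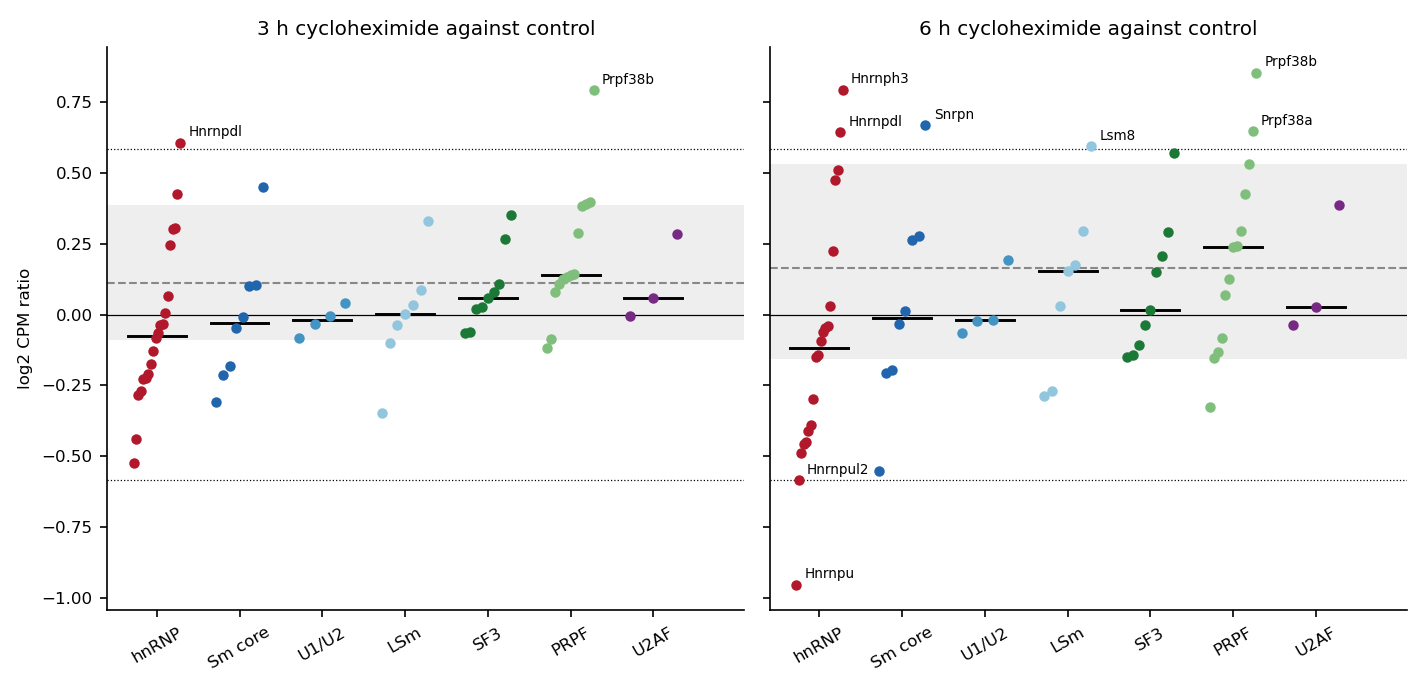
Log2 CPM ratio of each of the 64 genes after 3 h (left) and 6 h (right) against the control, by class. Each point is a gene, bars are class medians, the dashed line and grey band are the median and quartiles of the 7608 genes of the floor, and dotted lines mark 1.5-fold. The hnRNP median lies 0.19 below the median of these 7608 genes after 3 h and 0.29 below it after 6 h under each scaling. Hnrnpu is the lowest point at both times.

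The promoters of the members with the largest ratios were compared, since they lay on both sides of the control. RefSeq promoter windows on GRCm38.p6, from 250 bases before to 50 bases after the transcript start, were matched by symbol for 54 of the 64 genes. The 5 windows below belong to Hnrnpu, the lowest member after 6 h, and to the 4 members with the highest ratios once Snrpn, which has 4 annotated starts, is set aside. Capitals mark matches on either strand to the searched motifs, and the sequences run from 5′ to 3′ on the strand of the gene.
Hnrnpu, chr1:178337766-178338065, minus strand: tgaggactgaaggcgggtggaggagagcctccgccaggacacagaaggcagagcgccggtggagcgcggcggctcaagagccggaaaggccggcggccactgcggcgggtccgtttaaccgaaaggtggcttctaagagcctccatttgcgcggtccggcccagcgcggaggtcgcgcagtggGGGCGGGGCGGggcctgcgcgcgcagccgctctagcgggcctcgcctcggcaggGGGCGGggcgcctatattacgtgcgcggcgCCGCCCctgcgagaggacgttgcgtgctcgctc
Hnrnph3, chr10:63023800-63024099, minus strand: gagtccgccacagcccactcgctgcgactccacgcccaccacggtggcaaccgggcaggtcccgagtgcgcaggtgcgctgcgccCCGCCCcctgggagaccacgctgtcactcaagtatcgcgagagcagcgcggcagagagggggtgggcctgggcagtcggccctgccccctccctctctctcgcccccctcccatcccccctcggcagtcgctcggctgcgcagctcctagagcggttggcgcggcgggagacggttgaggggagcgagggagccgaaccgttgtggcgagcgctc
Hnrnpdl, chr5:100039173-100039472, minus strand: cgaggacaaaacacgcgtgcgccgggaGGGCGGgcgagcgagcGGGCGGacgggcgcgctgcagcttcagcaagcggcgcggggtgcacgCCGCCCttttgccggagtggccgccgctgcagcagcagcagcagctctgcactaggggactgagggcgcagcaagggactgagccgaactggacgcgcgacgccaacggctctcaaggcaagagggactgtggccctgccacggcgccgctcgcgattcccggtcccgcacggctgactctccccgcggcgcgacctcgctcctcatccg
Prpf38b, chr3:108911680-108911979, minus strand: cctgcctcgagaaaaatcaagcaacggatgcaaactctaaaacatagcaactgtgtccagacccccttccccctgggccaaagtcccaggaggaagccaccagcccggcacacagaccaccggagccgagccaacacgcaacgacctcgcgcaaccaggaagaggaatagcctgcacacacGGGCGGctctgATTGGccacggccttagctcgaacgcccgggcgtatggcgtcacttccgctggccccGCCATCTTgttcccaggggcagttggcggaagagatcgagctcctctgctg
Prpf38a, chr4:108579287-108579586, minus strand: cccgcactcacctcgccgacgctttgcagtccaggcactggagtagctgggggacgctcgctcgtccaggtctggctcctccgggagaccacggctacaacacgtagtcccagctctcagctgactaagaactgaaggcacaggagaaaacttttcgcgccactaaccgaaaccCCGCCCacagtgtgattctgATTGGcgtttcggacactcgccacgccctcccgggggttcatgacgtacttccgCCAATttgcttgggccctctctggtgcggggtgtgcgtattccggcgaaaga

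Motifs were searched on both strands with overlaps allowed. The SP/KLF motif was searched as the letters GGGCGG, the NFY motif as the letters CCAAT and the ETS motif as the letters CCGGAAG. The YY1 motif was searched as the letters AAGATGGC, the E-box as the letters CACGTG and the TATA box as the letters TATAAA, and the NRF1 motif by its palindromic consensus. The Hnrnpu window held 4 GGGCGG matches and no other motif, and the Hnrnpdl and Hnrnph3 windows held 3 and 1 of the same kind. The Prpf38b window held 1 match each to AAGATGGC, CCAAT and GGGCGG, and the Prpf38a window held 2 to CCAAT and 1 to GGGCGG. Shares, GC content and CpG counts were taken over the first listed start of each gene, so a motif at another start was not counted. Over the members, 64.8% had GGGCGG, against 68.2% of 6084 genes of the floor and 35.9% of all 27025 promoter genes. CCAAT was in 51.9% of members and 40.7% of genes of the floor, CCGGAAG in 29.6% and 23.4%, CACGTG in 14.8% and 11.3%, TATAAA in 7.41% and 6.36%, and AAGATGGC in 7.41% and 6.33%. The NRF1 motif was in 0 of 54 members and in 2.61% of genes of the floor. Windows of members had a median GC content of 58.7% and 24 CpG dinucleotides, against 61.3% and 22 for genes of the floor. A match to these letters is a description of the window and is not evidence of binding.

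The hnRNP genes had the lowest median of the 7 classes at both times over these cells. Their median log2 CPM ratio was -0.074 after 3 h and -0.12 after 6 h, and 15 of 20 were below the median of all genes at each time. Relative to that median the hnRNP median was -0.19 after 3 h and -0.29 after 6 h, and the snRNP median was -0.12 and -0.15. The size of these offsets depends on the floor that sets the background. Against genes of at least 50 CPM they were -0.14 and -0.22 for hnRNP genes and -0.073 and -0.092 for snRNP genes. Against all genes without a floor they were -0.21 and -0.47, and -0.15 and -0.34. Without the lower mitochondrial limit the order after 3 h turned, with a hnRNP median of -0.15 and a snRNP median of -0.17 relative to all genes, and after 6 h they were -0.26 and -0.21. The summed hnRNP level was 7257 CPM in the control, 6836 CPM after 3 h and 6468 CPM after 6 h. In UMIs per cell the order differed, with 370 in the control, 420 after 3 h and 355 after 6 h.

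Hnrnpu encodes hnRNP U, also called scaffold attachment factor A, which binds both RNA and chromatin. It measured 804 CPM in the control (799 to 809), 559 CPM after 3 h (555 to 564) and 415 CPM after 6 h (412 to 418). The level was lower at each successive time. At counts of this size the intervals are narrow, and they do not bear on differences between libraries beyond counting error. The log2 ratio was -0.52 after 3 h and -0.95 after 6 h (-0.97 to -0.94), a level 1.94-fold below the control. Hnrnpu after 6 h was past 1.5-fold under each of the 11 alternatives that change its ratio, from -1.25 with median-of-ratios size factors to -0.85 by mean UMIs per cell. Its gene lies at chr1:178321108-178337797 on the minus strand (GRCm38) and shares exonic sequence with the oppositely oriented Cox20. How reads shared by overlapping genes were counted is not given in the sources used here.

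Hnrnpul2, a relative of hnRNP U with the same domain layout, measured 105, 77.6 and 70.0 CPM in the control, after 3 h and after 6 h. Its log2 ratio after 6 h was -0.59 (-0.62 to -0.55), just past the threshold, and it missed the threshold under 4 of these 11 alternatives. It overlaps AC129217.1 on the same strand. Hnrnpul1, the other relative, was above the control at 46.7, 57.8 and 54.6 CPM, although its log2 ratio of 0.22 after 6 h is below 0 under TMM factors. Hnrnpu transcripts were 17.2 times as many as Hnrnpul1 transcripts in the control, 9.67 times after 3 h and 7.60 times after 6 h. At 6 h the ratio of U to UL1 transcripts was 0.442 of its control value (a ratio within a library, which no scaling moves).

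Among the hnRNP A and B genes, which encode the most abundant RNA-coating proteins, the most abundant transcripts were Hnrnpa3 and Hnrnpa2b1. Hnrnpa3 measured 933, 774 and 680 CPM, a log2 ratio of -0.46 after 6 h. Hnrnpa2b1 measured 843, 796 and 789 CPM and stayed close to the control. Hnrnpa1, whose protein competes with SR proteins at splice sites, went the other way at 467, 628 and 666 CPM, with log2 ratios of 0.43 and 0.51. Hnrnpa1 transcripts were 0.501 times those of Hnrnpa3 in the control, 0.811 times after 3 h and 0.979 times after 6 h. Hnrnpab and Hnrnpa0 were below the control in CPM at both times, but not after 3 h by UMIs per cell, with log2 ratios after 6 h of -0.39 and -0.41. None of these 5 reached 1.5-fold in CPM. Many processed copies of Hnrnpa1 and Hnrnpa3 exist in the genome, and how multiply aligned reads were treated is not given, so their levels are uncertain in that respect.

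Hnrnpd and Hnrnpdl encode closely related proteins that bind AU-rich RNA, and their transcripts lay on opposite sides of the control. Hnrnpdl measured 224, 341 and 350 CPM, with log2 ratios of 0.61 and 0.65, and most of its difference from the control was present by 3 h. Hnrnpd measured 255, 209 and 181 CPM, with log2 ratios of -0.28 and -0.49. The ratio of Hnrnpdl to Hnrnpd was 0.879 (0.864 to 0.894) in the control, 1.63 after 3 h and 1.93 (1.90 to 1.96) after 6 h, a 2.20-fold difference between control and 6 h. In the H and F family, whose proteins bind runs of G, Hnrnph3 stood apart at 71.7, 88.5 and 124 CPM. Its log2 ratio was 0.30 after 3 h and 0.80 after 6 h in CPM, and 0.57 and 0.90 by mean UMIs per cell, with 0.49 between the times in CPM. Hnrnph1 measured 148, 131 and 144 CPM, Hnrnph2 66.9, 65.2 and 60.3 CPM, and Hnrnpf, the second most abundant hnRNP transcript by mean level, 813, 815 and 779 CPM. Hnrnph3 overlaps exons of Rufy2 on the opposite strand.

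None of the remaining hnRNP genes reached 1.5-fold in CPM. Hnrnpr, which encodes a relative of Syncrip, measured 138, 131 and 101 CPM, with a log2 ratio of -0.38 between the times. Hnrnpk, a poly(C)-binding protein with KH domains, measured 584, 505 and 475 CPM. Hnrnpc, whose protein binds tracts of U, measured 570, 596 and 582 CPM, and Hnrnpm 238, 218 and 216 CPM. Hnrnpl, which encodes a binder of CA repeats, measured 141, 138 and 136 CPM, and its paralog Hnrnpll 42.3, 50.1 and 58.8 CPM. The ratio of Hnrnpll to Hnrnpl was 0.300 in the control, 0.365 after 3 h and 0.431 after 6 h.

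**Figure D2:**
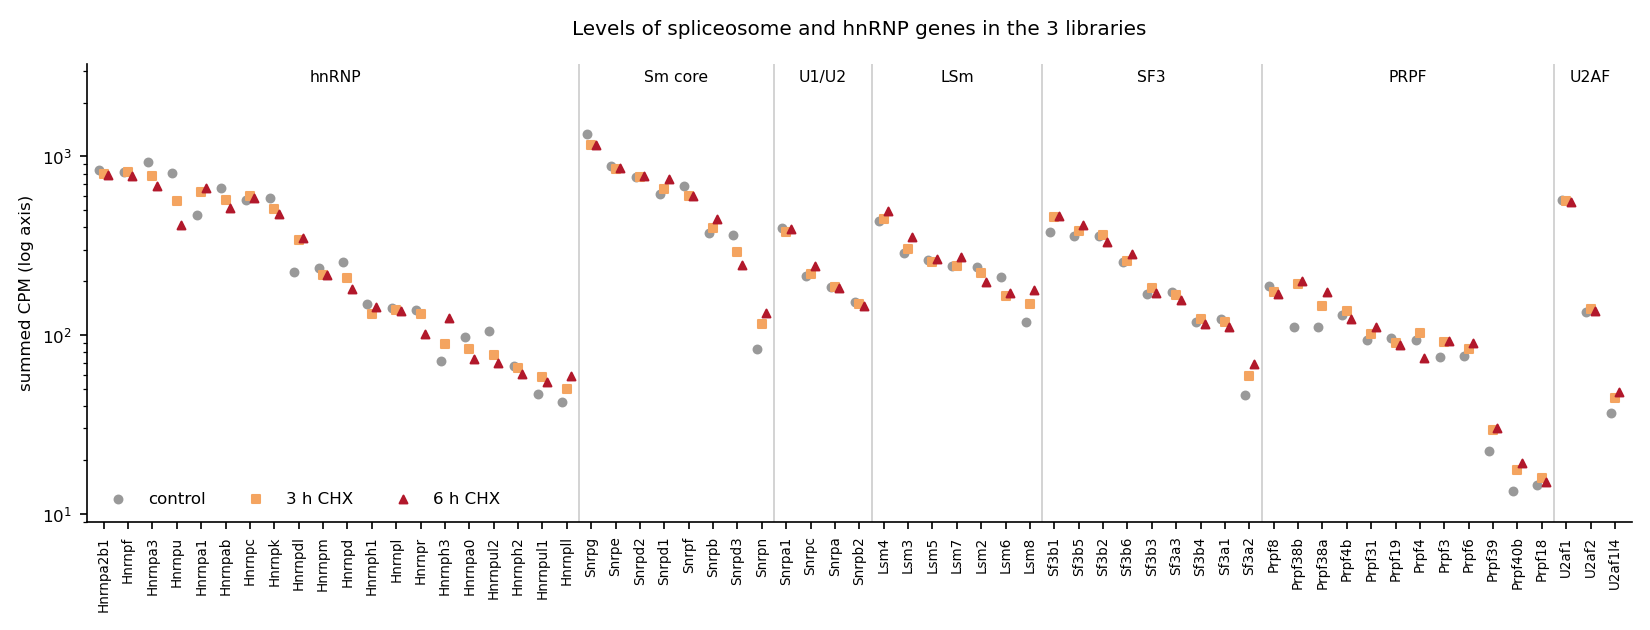
Summed CPM (log axis) of the spliceosome and hnRNP genes, 1 left out, in the control (grey circles), after 3 h (orange squares) and after 6 h of cycloheximide (red triangles), by class and by mean level within it. Most triplets of points nearly coincide, while Hnrnpu spreads from 804 to 415 CPM and Hnrnph3 from 71.7 to 124 CPM.

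The Sm genes encode the ring that all spliceosomal snRNPs but U6 share. They summed to 5096 CPM in the control, 4833 CPM after 3 h and 4958 CPM after 6 h, with a median log2 ratio of -0.010 after 6 h. Snrpg was the most abundant member of all 64, at 1340, 1156 and 1163 CPM. Snrpe measured 878, 849 and 859 CPM, and Snrpd2 measured 766, 761 and 772 CPM. The ring needs 1 copy of each protein. Ratios between its transcripts differed between the libraries to unequal degrees, for pairs that were chosen after their values were seen. Ratios of arbitrary gene pairs were not taken for comparison. Snrpd3 measured 361, 292 and 246 CPM, a log2 ratio of -0.55 after 6 h, while Snrpb, which encodes the partner of SmD3 in the ring, measured 371, 398 and 445 CPM. The ratio of Snrpd3 to Snrpb was 0.975 in the control, 0.733 after 3 h and 0.554 after 6 h. The partners Snrpd1 and Snrpd2 moved less, from a ratio of 0.801 in the control to 0.964 after 6 h. Between the same libraries the ratio of Snrpf to Snrpe went from 0.779 to 0.695. That of Snrpg to Snrpe went from 1.53 to 1.35.

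Snrpn, an imprinted gene whose protein SmN can take the place of SmB, was the Sm gene with the highest ratio. It measured 83.7 CPM in the control, 115 CPM after 3 h and 133 CPM after 6 h, with log2 ratios of 0.45 and 0.67. Relative to Snrpb the level of Snrpn was 0.226 in the control, 0.288 after 3 h and 0.299 after 6 h. Snrpn shares its strand and exons with Snurf. How reads shared by the 2 genes were counted is not given, so the level is uncertain in that respect. The 4 genes of proteins specific to U1 or U2 had log2 ratios of -0.065 to 0.19 after 6 h. Snrpa1 (U2 A′) measured 399, 377 and 393 CPM, Snrpc (U1 C) 213, 220 and 244 CPM, Snrpa (U1 A) 186, 186 and 184 CPM and Snrpb2 (U2 B″) 153, 149 and 146 CPM.

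The LSm2 to LSm8 proteins form the ring on U6, and LSM8 is the subunit that marks the nuclear form of the ring. Lsm8 was the least abundant of the 7 in the control and had the highest ratio, at 118, 149 and 179 CPM (log2 0.33 and 0.60). Its partners Lsm2 and Lsm6 lay on the other side of the control, with log2 ratios of -0.27 and -0.29 after 6 h. Lsm6 measured 211, 166 and 173 CPM. The ratio of Lsm8 to Lsm2 was 0.494 in the control, 0.666 after 3 h and 0.900 after 6 h. The most abundant members Lsm4, Lsm3 and Lsm5 measured 435, 286 and 262 CPM in the control and 491, 352 and 267 CPM after 6 h. The LSm genes summed to 1795, 1787 and 1931 CPM.

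No gene for recognition of the intron end or the branch point reached 1.5-fold in CPM, while Sf3a2 did so by mean UMIs per cell (log2 0.62 after 3 h and 0.68 after 6 h). U2af1, whose protein reads the AG at the end of the intron, measured 567, 565 and 553 CPM, and U2af2, whose protein binds the pyrimidine tract, measured 134, 139 and 137 CPM. The ratio of these heterodimer partners was 4.23 in the control and 4.05 at both later times. U2af1l4, a U2af1 relative, measured 36.6, 44.6 and 47.9 CPM. The 9 SF3 genes had log2 ratios of -0.15 to 0.57 after 6 h. Sf3b1, the branch point clamp that is recurrently mutated in leukemias, was the most abundant at 379, 457 and 465 CPM, followed by Sf3b5 and Sf3b2. Sf3a2 had the highest ratio of the class at 46.4, 59.2 and 68.9 CPM, and Sf3a1 the lowest at 123, 118 and 111 CPM. The ratio of Sf3a2 to its complex partner Sf3a3 was 0.267, 0.356 and 0.438 in the 3 libraries. Sf3a2 overlaps Plekhj1 on the opposite strand.

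The PRPF genes had the highest class median, 0.14 after 3 h and 0.24 after 6 h on the log2 CPM scale (both below 0 under TMM factors), and summed to 1296, 1478 and 1483 CPM. Prpf8, the scaffold of the catalytic core, was among their 3 most abundant members by mean level at 188, 173 and 169 CPM, as was Prpf38b. Prpf38b and Prpf38a encode related PRP38-domain proteins that act before catalytic activation. Prpf38b measured 111, 192 and 201 CPM (log2 0.79 and 0.86) and had the highest ratio of all 64 genes at both times. Prpf38a started from the same level and was at 111, 146 and 174 CPM (log2 0.40 and 0.65). The ratio of Prpf38b to Prpf38a was 1.00 in the control, 1.32 after 3 h and 1.16 after 6 h.

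The U4/U6 proteins PRPF3 and PRPF4 bind each other, and their transcripts differed in time course. Prpf3 measured 75.3, 91.9 and 92.3 CPM. Prpf4 measured 93.3 CPM in the control, 103 CPM after 3 h and 74.5 CPM after 6 h, the lowest PRPF ratio after 6 h (log2 -0.32). Prpf31 and Prpf6, which bridge U4/U6 with U5, were 0.24 above the control after 6 h on the log2 CPM scale, and below it under TMM factors. Prpf19, the ubiquitin ligase that names the PRP19 complex, measured 95.8, 90.2 and 87.5 CPM. The least abundant members of all 64 were Prpf40b at 13.4 to 19.3 CPM and Prpf18 at 14.4 to 15.9 CPM.

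**Figure D3:**
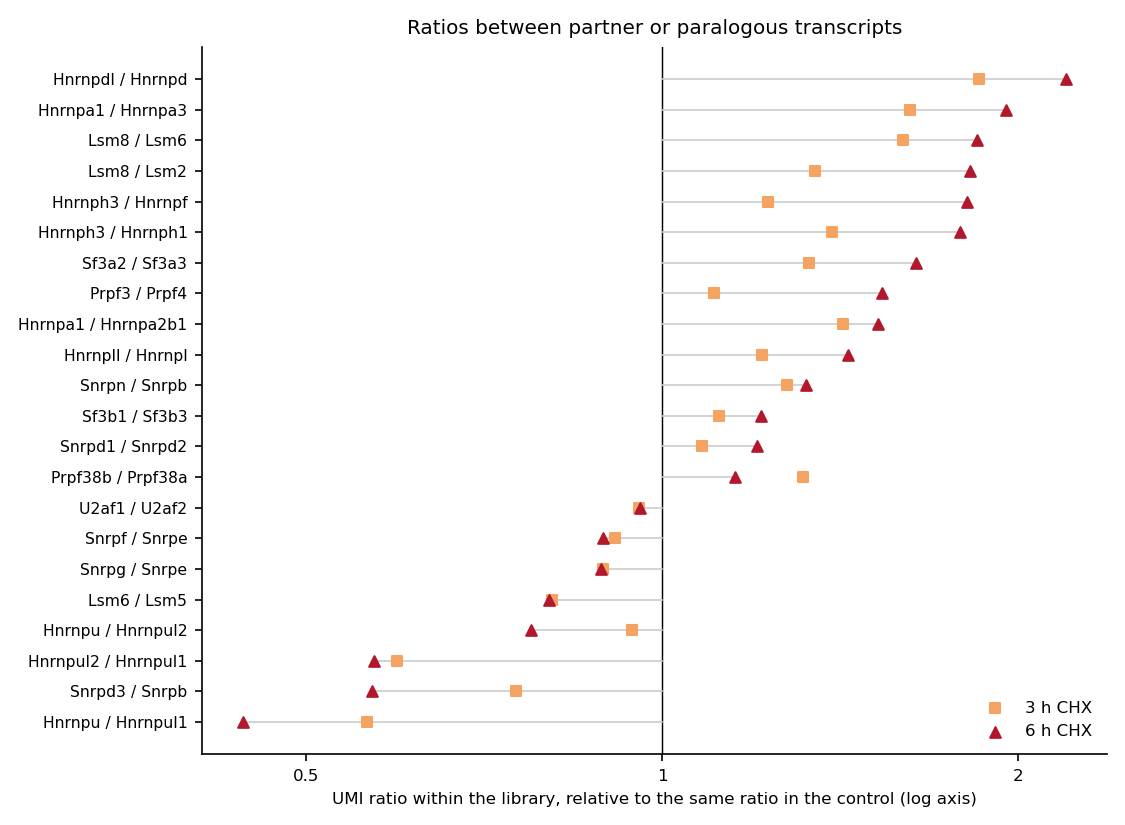
Ratio of UMIs between paired transcripts of one complex or family, relative to the same ratio in the control (log axis), after 3 h (orange squares) and 6 h (red triangles). Pairs above 1 have the first gene gaining on the second. Hnrnpdl over Hnrnpd reaches 2.20 and Hnrnpu over Hnrnpul1 falls to 0.442, while U2af1 over U2af2 stays at 0.957. The pairs were chosen after their values were seen, and no background of arbitrary gene pairs is shown.

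Because a ratio between genes of a library does not depend on scaling, the 2 large classes were also set against each other directly. For each UMI of a snRNP gene there were 0.925 UMIs of hnRNP genes in the control (0.923 to 0.928), 0.905 after 3 h (0.902 to 0.908) and 0.823 after 6 h (0.821 to 0.826). Relative to the control this was 0.978 after 3 h and 0.890 after 6 h. The 3 h value turned to 1.02 and the 6 h value moved to 0.928 when the lower mitochondrial limit was dropped. The 62 control barcodes below that limit had a median of 110690 UMIs and held 3593 CPM of hnRNP and 9884 CPM of snRNP transcripts, compared with 7257 and 7843 CPM in the control cells. In them Hnrnpu measured 212 CPM, or 0.264 of its level in the control cells, and Hnrnpul2 was at 0.190 of its level. What these barcodes are was not tested. Without Hnrnpa2b1, Hnrnpa1 and Hnrnpk, the relative ratio was 0.950 after 3 h and 0.845 after 6 h.

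Single cells were compared after each was thinned to 15000 UMIs, which left out 0 cells. The typical control cell then had 105 hnRNP UMIs (10th to 90th percentile 81 to 141) and 118 snRNP UMIs (97 to 137). At 3 h the medians were 100 and 112, and after 6 h they were 96 and 118. The hnRNP sum varied more between cells than the snRNP sum. Its excess squared coefficient of variation, the variance beyond counting noise over the squared mean, was 0.0371 in the control, 0.0290 after 3 h and 0.0248 after 6 h, compared with 0.00949, 0.0110 and 0.00740 for the snRNP sum. Single members mostly lay below the median excess of all genes with a mean of at least 0.2 thinned UMIs. Their median excess was 0.0444, 0.0394 and 0.0373, where all such genes had 0.0783, 0.0796 and 0.0860. Of the members, 48 of 63, 50 of 64 and 49 of 64 lay below the latter medians. The genes compared were not matched to the members in level, and the part of level in this difference was not tested.

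Named members spanned a wide range of this variation. In the control the excess was 0.332 for Prpf39, 0.247 for Hnrnpul2, 0.130 for Hnrnpa3 and 0.122 for Hnrnpu, and 0.0130 for Snrpf and 0.0163 for Snrpg. Prpf39 was at 22.3 CPM in the control, so its excess rests on few UMIs per cell. No interval was taken for these values. A UMI of Prpf38b was found in 77.5% of thinned control cells (exact binomial interval 75.7 to 79.2%), 92.8% after 3 h (91.5 to 94.0%) and 93.1% after 6 h (92.1 to 94.1%). For Hnrnph3 the shares were 64.7%, 71.8% and 82.9%, with mean levels of 1.08, 1.32 and 1.88 UMIs. Hnrnpu was found in 99.9%, 99.7% and 99.2% of cells while its mean was 8.62 UMIs after 3 h and 6.34 UMIs after 6 h, so its lower level was one of fewer molecules in cells that nearly all kept some. Free RNA adds to such shares. Barcodes of 10 to 100 UMIs, which hold mainly free RNA, contained 7815, 7799 and 7216 CPM of hnRNP transcripts in the 3 libraries. The cells held 7257, 6836 and 6468 CPM. For Hnrnpu these barcodes held 744, 712 and 477 CPM, below the 804 CPM of the control cells. After 3 h and 6 h they were above the 559 and 415 CPM of the cells, so free RNA bears unequally on its shares. No cell type lacking these genes was at hand for a background share.

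Across cells of a library, the hnRNP and snRNP sums ran against each other. Spearman's rho was -0.31 over 2187 control cells, -0.23 over 1739 cells after 3 h and -0.24 over 2554 cells after 6 h. The hnRNP sum ran with the summed SF3, PRPF and U2AF genes, with rho of 0.38, 0.33 and 0.30. These are descriptions over cells that share a library, and sums taken from a fixed number of UMIs compete for the same total. The hnRNP sum had rho of 0.51, 0.50 and 0.43 with the share of Malat1, a long noncoding RNA that stays in the nucleus, and of -0.63, -0.53 and -0.45 with the share of ribosomal protein transcripts. The snRNP sum had the reverse pattern, with -0.43, -0.37 and -0.31 for Malat1 and 0.41, 0.44 and 0.43 for ribosomal protein transcripts. The correlation of either sum with the total UMIs of the cell was between -0.029 and 0.074.

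**Figure D4:**
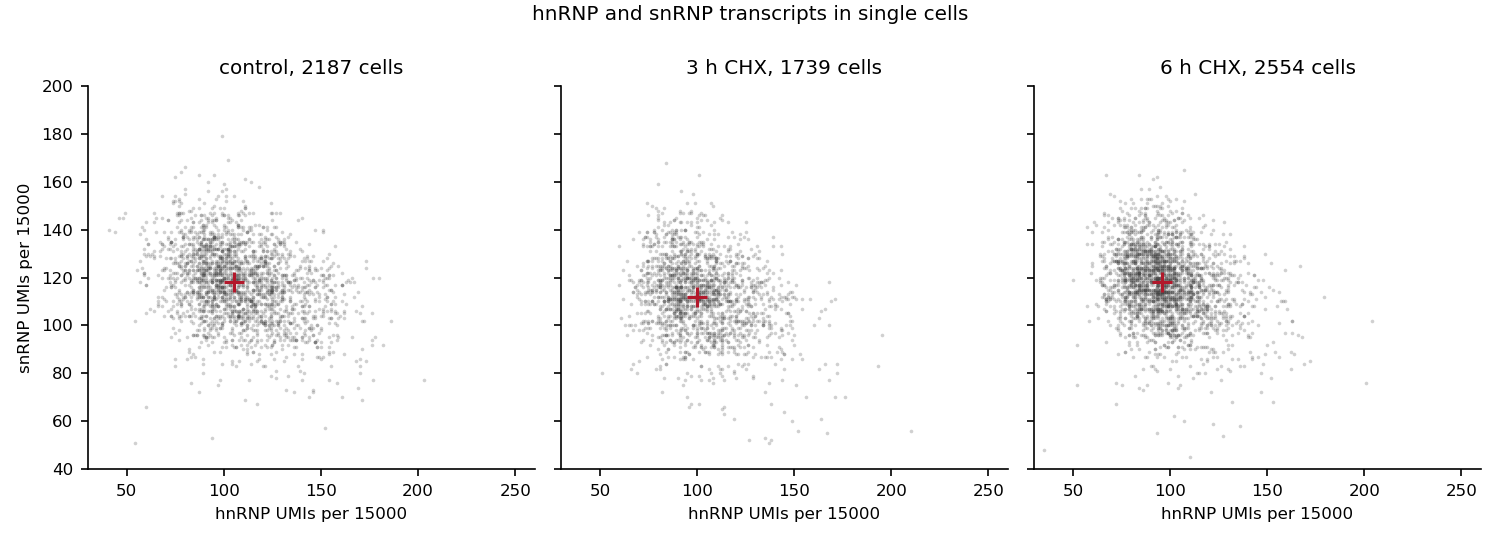
hnRNP UMIs (horizontal axis) and snRNP UMIs (vertical axis) in each cell after thinning to 15000 UMIs, 1 panel per library. Points are cells and crosses are medians. The clouds slope downward with rho of -0.31, -0.23 and -0.24, and the median hnRNP count is 105, 100 and 96.

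Cells of each library were divided into tertiles of Malat1 share, which compares cells of 1 library and not replicates. Of the 20 hnRNP genes, all 20 had a higher CPM in the high than in the low tertile in each of the 3 libraries, where 50.3% of all genes did. Of the 19 snRNP genes, all 19 had a lower CPM in each library, where 27.9% of all genes did. Of the 25 SF3, PRPF and U2AF genes, 16 were higher in all 3 libraries, 7 were lower in all 3 and 2 were mixed. The median log2 ratio of high to low tertile was 0.37 in the control, 0.30 after 3 h and 0.25 after 6 h for hnRNP genes, and -0.18, -0.15 and -0.14 for snRNP genes. Over all genes it was 0.12, 0.089 and 0.043. The hnRNP to snRNP ratio went from 0.753 in the low to 1.12 in the high tertile of the control, from 0.765 to 1.08 after 3 h and from 0.720 to 0.945 after 6 h.

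In the control the members with the steepest difference between the tertiles were Hnrnpul2, Hnrnpa3 and Hnrnpu. Hnrnpul2 had 73.3 CPM in the low and 139.8 CPM in the high tertile of the control (log2 0.93), and Hnrnpa3 had 682 and 1185 CPM (log2 0.80). Hnrnpu had 623 CPM in the low, 819 CPM in the middle and 970 CPM in the high tertile. At 6 h it had 343, 412 and 495 CPM, so that every tertile after 6 h lay below every tertile of the control. Snrpg was opposite, at 1419 and 1245 CPM in the low and high tertiles of the control. Restricting all libraries to cells of 0.1 to 0.4% Malat1 gave a relative hnRNP to snRNP ratio of 0.952 after 3 h and 0.859 after 6 h, further from 1 than over all cells.

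Other measures moved with the tertiles. Ribosomal protein transcripts took a median of 26.3% of UMIs in the low and 24.1% in the high Malat1 tertile of the control, and the median UMI count went from 39892 to 45172. Across 7492 genes with an annotated length, the high to low tertile ratio ran with transcript length, with rho of 0.52, 0.50 and 0.46 in the 3 libraries. The length of a gene was taken as the median over its annotated protein-coding transcripts, whichever of them the cells express. The median length was 2155 bases for hnRNP genes, 933 bases for snRNP genes and 1952 bases for all genes of the floor. The part of length and of ribosomal protein transcripts in the tertile difference was not tested. The ratios against the control did not run with length in this way, with rho of 0.00200 after 3 h and -0.087 after 6 h.

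**Figure D5:**
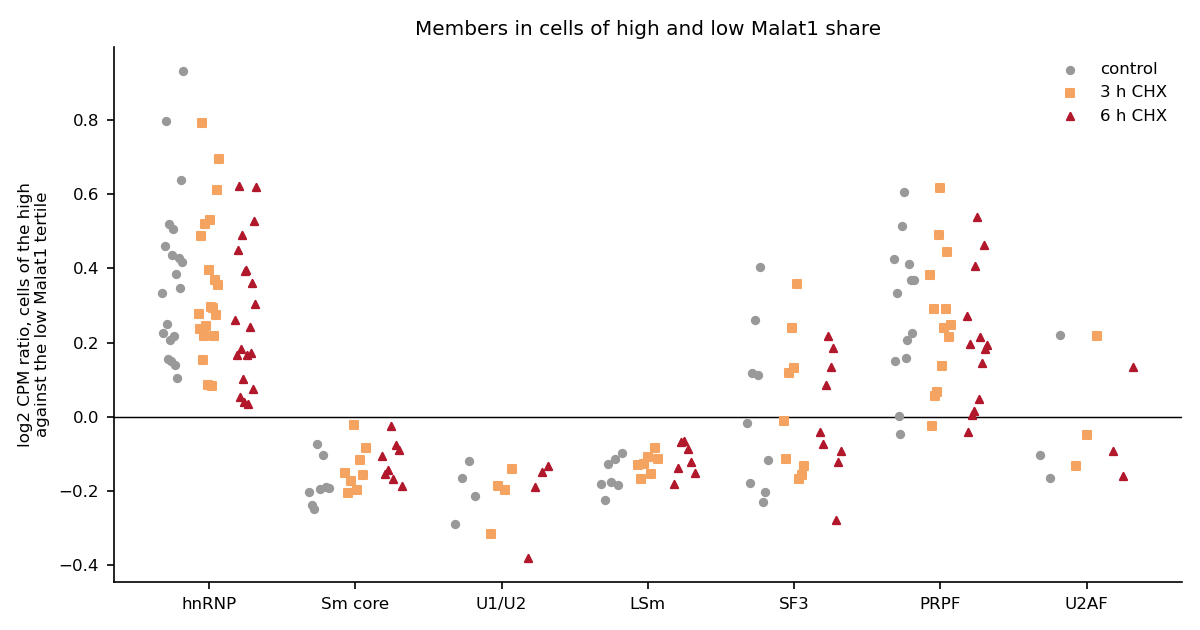
Log2 CPM ratio between cells of the high and the low Malat1 tertile for each of the 64 genes, by class, in the control (grey), after 3 h (orange) and after 6 h (red). All hnRNP points lie above 0 and all Sm, U1/U2 and LSm points below it, with medians of 0.37, 0.30 and 0.25 for hnRNP genes.

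Members with and without annotated NMD transcripts overlapped in their ratios. In GENCODE M21, 26 of the 64 genes (40.6%) have at least 1 transcript annotated as an NMD target, against 32.1% of the protein-coding genes of the floor. Their median log2 CPM ratio after 6 h was 0.077, and it was -0.051 for the other 38 members. The corresponding medians over all protein-coding genes of the floor were 0.22 and 0.15. Hnrnpu, the lowest member, has 3 such transcripts, and Prpf38b and Hnrnpdl, among the highest, have 2 each. Of 5 members described as limiting their own expression through NMD (Hnrnpl, Hnrnpdl, Hnrnpd, Hnrnpa2b1 and Snrpb), 1 was higher by 1.5-fold in CPM after 6 h. This was Hnrnpdl, and the share is near the 22.1% of all genes that were higher. The median of the 5 was -0.046 after 6 h, and 3 of them lay below the median of all genes. Counts at the 3′ end do not separate the NMD transcripts of a gene from its productive ones.

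Other splicing genes, listed by role, are read against the 22.1% of all genes that were higher and the 7.79% that were lower in CPM after 6 h. Of 18 related hnRNP-type proteins of the floor, 2 were higher and 0 lower, with a median log2 CPM ratio of -0.050. The highest was Cirbp, a cold-inducible RNA-binding protein, at 47.2, 144 and 190 CPM (log2 2.01). Of 27 genes for other snRNP proteins and snRNP assembly, 4 were higher and 1 lower, with a median of 0.073. Gemin2, a subunit of the SMN complex that loads Sm rings, had the highest ratio (log2 0.96), and Ddx23, a U5 helicase, the lowest, at 59.3, 32.8 and 20.4 CPM (log2 -1.54). Of 17 factors of the PRP19 complex and the catalytic steps, 4 were higher and 0 lower, with Ppil1 at 0.84 and Aqr at -0.53. Of 10 spliceosomal helicases none passed in either direction, with Ddx39b at 0.53 and Dhx38 at -0.45. Of 11 splice site recognition partners 3 were higher and 0 lower, with Luc7l, a U1-associated protein, at 116, 228 and 268 CPM (log2 1.21) and Rbm17 at -0.41. At 3 h, where 13.9% of all genes were higher and 2.13% lower, these lists had 1, 0, 1, 0 and 1 higher and 0, 1, 0, 0 and 0 lower genes.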

How the data were processed

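The deposited values were raw UMI counts per gene and barcode from 3 10x libraries, in unfiltered matrices of 6794880 barcodes and 32285 genes. The submitters' processing notes name Cell Ranger 4.0.0 and mm10, and the annotation is not given in the sources used here. Per the file headers the counts are whole numbers without normalization. Counts were summed per gene over barcodes with at least 15000 UMIs and 1 to 20% mitochondrial UMIs and scaled to CPM. Doublets were not removed, and cells above 2 times the median UMIs were left out in an alternative. Log2 ratios used a prior of 0.5 counts.

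Libraries held 127601369, 115188502 and 150987519 UMIs (control, 3 h, 6 h), of which cells held 87.3%, 92.8% and 92.9%. Each group had 1 library, so no test was made, and intervals are 95% and cover counting error only. Named genes were members past 1.5-fold, the 3 most abundant of each class by mean CPM, and the highest and lowest 6 h ratio of each class and pathway list. Some genes of this rule are not reported here, although counts and sums include them. Other members are named for completeness, and the pairs were chosen after their values were seen. Members and lists were chosen with earlier results of these data known. The calculations were tested on simulated data. Identifiers were matched to GENCODE M21 on GRCm38 (32158 of 32285). Tools were Python 3.11.15, numpy 2.4.6, scipy 1.17.1, pandas 2.3.3, matplotlib 3.10.9, R 4.3.3 and edgeR 4.0.16 (TMM factors only). Alternatives changed the scaling, the floor, the fold threshold, the barcode limits, free RNA and class membership, and the median-of-ratios size factors were computed in Python by the DESeq2 method.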

Additional observations from a re-analysis of the deposited data

Results flagged for a closer look

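The following 5 members lay on opposite sides of the control at 3 h and at 6 h, on the log2 CPM scale. Prpf4, which encodes a U4/U6 protein, was 0.14 above the control at 3 h and at -0.32 at 6 h, a difference between the times of -0.47. For the kinase gene Prpf4b this difference was -0.16, for the SF3b subunit genes Sf3b2 and Sf3b4 it was -0.14 and -0.094, and for Lsm5 it was 0.067. With 1 library per group the difference was not tested. The opposite signs depend on scaling. Under TMM factors all 5 genes were below the control at both times, with Prpf4 at -0.03 and -0.61. By mean UMIs per cell Prpf4 was at 0.41 and -0.22, and the other 4 were above the control at both times.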

How the results depend on the processing

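No paired analysis was possible because each group had 1 library, and for the same reason no replicate could be left out. The relative hnRNP to snRNP ratio (0.978 at 3 h, 0.890 at 6 h) kept its direction at 6 h under every alternative, and its 3 h value turned to 1.02 without the lower mitochondrial limit (0.928 at 6 h). It was 0.972 and 0.885 with at least 30000 UMIs, 0.983 and 0.895 without cells above 2 times the median UMIs, and 0.950 and 0.845 without Hnrnpa2b1, Hnrnpa1 and Hnrnpk, and at 3 h it was 0.966 with 10% free RNA subtracted. Under TMM factors the median log2 ratio of hnRNP genes was -0.25 at 3 h and -0.41 at 6 h, and that of snRNP genes -0.18 and -0.27. Under size factors they were -0.26, -0.42, -0.19 and -0.29, and in UMIs per cell 0.20, -0.010, 0.26 and 0.12. Without the lower mitochondrial limit they were -0.027, -0.072, -0.046 and -0.027. Without cells above 2 times the median UMIs the snRNP median at 3 h was -0.022.

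Members higher and lower by 1.5-fold were 1 and 2 at 3 h and 0 and 9 at 6 h under TMM factors, and 1 and 2, then 0 and 11, under size factors. By mean UMIs per cell 9 were higher at 3 h, and 10 were higher and 1 lower at 6 h. At a lower threshold of 0.32 on the log2 scale, 9 were higher and 3 lower at 3 h (29.5% and 8.33% of all genes) and 12 higher and 9 lower at 6 h (37.9% and 15.8% of all genes). At 6 h, 1 member in place of 2 was lower with at least 5000 UMIs, without the lower mitochondrial limit and without cells above 2 times the median UMIs, since Hnrnpul2 then missed the threshold. All genes shifted likewise under scaling (11.6% higher and 16.9% lower at 6 h under TMM factors).

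The following alternatives were chosen after seeing the data. In cells of 2 to 5% mitochondrial UMIs the relative ratio was 0.967 and 0.880, the hnRNP median at 6 h -0.16, and the snRNP medians -0.028 and -0.014. In cells of 30000 to 60000 UMIs the ratio at 3 h was 0.965, and 1 member was higher at 3 h. In cells of 0.1 to 0.4% Malat1 the ratio was 0.952 and 0.859, the hnRNP medians -0.11 and -0.17, the snRNP medians 0.011 and 0.044, and 1 member was higher at 3 h. The remaining 71 values of the class and count results stayed within their counting interval or within 1.5 times, among them the deeper thinning for cell-to-cell variation. They include the values with a floor of 50 CPM and with no floor, which could not differ. Every hnRNP, snRNP and called gene has a mean above 50 CPM. What the floor moves is the background of all genes, as given above. Depth limits the least abundant members most, with Prpf18 at an interval of 13.7 to 15.1 CPM in the control.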
